A study of Mus musculus with 2 samples.

Results

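Mir191 and Mir425 are neighbouring microRNA (miRNA) genes of mouse chromosome 9, and their levels were read in 2 small RNA libraries of adult heart. The members were taken by gene name, by joining the gene IDs of the count tables to GENCODE M21, and they are 2 of the 2202 miRNA genes counted. The libraries, biological replicates 1 and 2, form 1 group of male B6CASTF1/J mice aged 18 to 20 months with no treatment named. The strain is a cross between laboratory C57BL/6J and wild-derived CAST/EiJ mice. Each library has its own biosample but shares a donor record with the other, so p-values here measure counting error or the spread between these libraries, which may be technical. With 1 group, no conditions could be compared; the data show how abundant the pair was in heart, how the members related to each other, and how closely the libraries matched for them.

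A miRNA gene is transcribed into a hairpin, from whose arms mature RNAs (the 5p and 3p products) are cut. A mature miRNA guides Argonaute proteins to messenger RNAs, chiefly by pairing through its seed, bases 2 to 8. Hairpins close together on the same strand are often cut from a shared transcript. miR-191 and miR-425 are found in many tissues, and both are used in PCR assays as reference miRNAs against which others are normalised.

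The mature products of the members are shown first. They were taken from RefSeq (build GRCm38.p6, plus strand of chromosome 9), where both members were matched. Capitals mark the seed.
miR-191-5p: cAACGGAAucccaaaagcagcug
miR-191-3p: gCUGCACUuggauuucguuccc
miR-425-5p: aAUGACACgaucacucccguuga
miR-425-3p: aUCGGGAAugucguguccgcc
The 4 seeds differ from each other. Among 1738 mature entries of the RefSeq table, which hold 1398 seeds, no other gene carries the seed of miR-191-5p, miR-191-3p or miR-425-3p. The seed of miR-425-5p is shared with miR-489-3p.
miR-489-3p: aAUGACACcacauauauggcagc
Mir489, the gene of that partner, had 0 reads in both libraries, which allows a level of up to 0.988 CPM (reads per 1000000 reads in miRNA genes) in replicate 1 and 0.568 CPM in replicate 2 (3 reads of the total).

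The hairpins are printed with their mature arms in capitals, since the deposited counts are per hairpin and do not separate the arms.
Mir191: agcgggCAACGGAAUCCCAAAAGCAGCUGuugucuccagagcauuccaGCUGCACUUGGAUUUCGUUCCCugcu
Mir425: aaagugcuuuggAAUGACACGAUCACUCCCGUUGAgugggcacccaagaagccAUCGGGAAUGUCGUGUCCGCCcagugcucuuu
Mir191 (ENSMUSG00000105497.1) covers chr9:108568319-108568392 and is 74 bases long. Mir425 (ENSMUSG00000065579.1) covers chr9:108568777-108568861 and is 85 bases long. Their GC shares are close, 54.1% in each, and both 5p products are 23 bases long. The longest stretch that Mir191 has in common with any other counted hairpin is 11 bases, and for Mir425 it is 13 bases. No other counted hairpin holds an exact copy of any of the 4 mature sequences. This matters here because reads that mapped to several places were given to no gene.

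The place of the pair in Dalrd3 depended on the annotation. Dalrd3 encodes a protein that helps a methyltransferase modify arginine transfer RNAs. In RefSeq its extent (108567484 to 108572773) holds both hairpins, with Mir191 starting 835 bases after its start. In GENCODE M21, the annotation of the counts, Dalrd3 (ENSMUSG00000019039.14) runs from 108569886 to 108572774 and starts 1024 bases past the end of Mir425. GENCODE places the pair instead in the long noncoding RNA gene 4833445I07Rik (108567533 to 108569174, plus strand). Both hairpins lie in the only exon of its longer transcript. Of its shorter transcript with 2 exons, Mir191 lies between the exons, and Mir425 begins past the end, with 2 bases between. The hairpins are 384 bases apart in the same orientation. The exon structure of Dalrd3 in RefSeq was not used here, so "in Dalrd3" is meant below as within its RefSeq extent only.

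**Figure D1:**
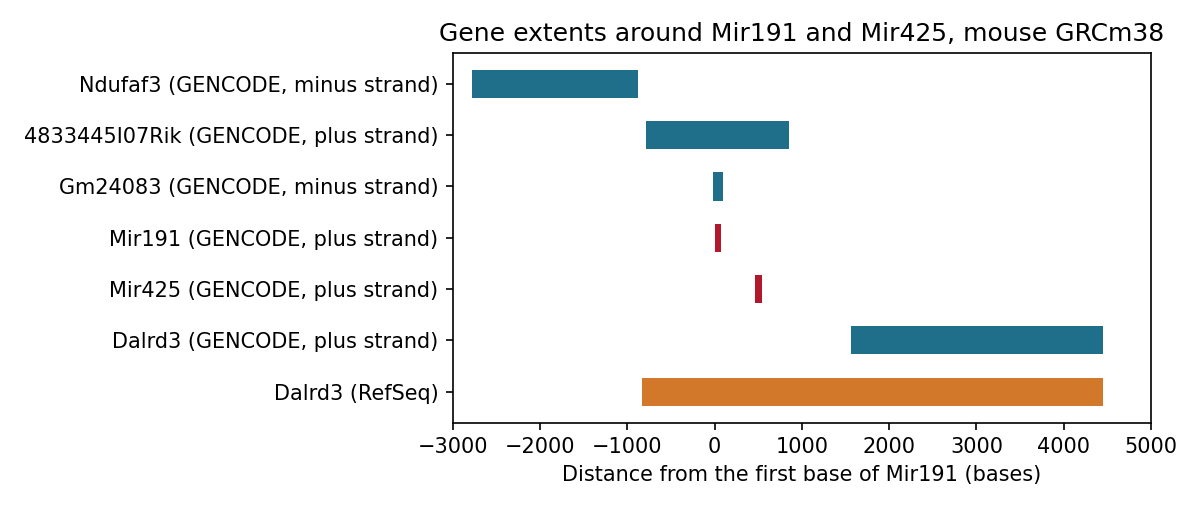
Extents of the genes around the pair on mouse GRCm38, one bar per gene, with distance in bases from the first base of Mir191 on the horizontal axis. Red bars are the members, blue bars other GENCODE M21 genes and the orange bar the RefSeq extent of Dalrd3; GENCODE's Dalrd3 starts 1024 bases past Mir425, while RefSeq's covers both hairpins.

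On the minus strand, GENCODE annotates the miRNA gene Gm24083 (108568295 to 108568414, 120 bases), which covers the whole of Mir191. It had 0 sense reads in both libraries. The deposited column that ignores strand held 0 reads for Mir191, against 32918 and 58779 in the sense column of replicates 1 and 2. For Mir425, which no other miRNA gene overlaps, the sense column and the column that ignores strand held the same reads. Neither member had a read on its opposite strand. The abundance of Mir191 can therefore be seen in the sense column only, which is used below.

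Replicate 1 held 3037063 reads in miRNA genes and replicate 2 held 5284446, 1.74 times as many. Reads mapped to several places made up 40.7% and 32.5% of all reads of replicates 1 and 2, and unmapped reads 19.4% and 34.3%. The heart label was checked against marker miRNAs. Of 8 heart muscle markers 7 had at least 10 reads in both libraries, and together they took 1.08% and 1.48% of the miRNA reads. Nearly all of these came from Mir208a (15744 and 48375 reads) and Mir499 (16882 and 28998 reads), while the 5 genes of miR-1 and miR-133 held 8 to 141 reads each. Reads that mapped to several places are in none of these counts. Low counts of genes with copies, such as Mir1a-1 and Mir1a-2 or Mir133a-1 and Mir133a-2, therefore do not show low levels of the mature miRNA. The endothelial marker Mir126a took 8.52% and 11.0%, while the 5 matched brain markers held 1 and 3 reads in all. Erythroid markers took 0.820% and 0.254% and did not move together: Mir144 (2265 and 271 CPM) and Mir451a (4900 and 948 CPM) were lower in replicate 2, and Mir486 (1035 and 1324 CPM) higher. Epithelial markers took 0.0298% and 0.387%. In replicate 2, Mir205 (7 and 10372 reads) and Mir200c (251 and 8728 reads) gave 93.3% of the reads of that list. Mir203 (150 and 202 CPM), Mir141 (5.93 and 18.2 CPM) and Mir200a (4.61 and 5.49 CPM) were also higher there. Mir200b (32.9 and 21.6 CPM) and Mir429 (19.4 and 12.1 CPM) were lower in replicate 2. The part of these markers in the values of the members was not tested.

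By counted reads, Mir191 was among the 20 most abundant miRNA genes of the heart. Reads that mapped to several places are in no gene's count, so levels and ranks hold among the counted reads only. It had 32918 reads in replicate 1 and 58779 in replicate 2, or 10839 and 11123 CPM. These are shares of 1.08% (1.07 to 1.10) and 1.11% (1.10 to 1.12) of the miRNA reads, with 95% Wilson intervals in parentheses. Its mean level was 10981 ± 201 CPM (SD, n = 2), and it ranked 18 in replicate 1, 19 in replicate 2 and 18 by mean. Among the 321 genes detected, meaning at least 10 reads in both libraries, 303 lay below it in replicate 1 and 302 in replicate 2. Each read was taken to stand for a whole short RNA, which was not tested, so levels were not divided by gene length.

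The gene most like Mir191 over the 2 libraries was Mir30a, of the miR-30 family, at 11603 and 11912 CPM (distance 0.14 on the log2 CPM scale, over 2 libraries). It was above Mir191 in both, without overlap between the libraries. Next came Mir30d (13894 and 16183 CPM, distance 0.65) and Mir125a (7432 and 8606 CPM, distance 0.66). In the order of mean levels, Mir30d and Mir30a stood directly above Mir191, and Mir21a and Mir125a directly below it. Mir21a, known for its rise after tissue injury, was at 1899 and 15190 CPM in replicates 1 and 2, on either side of Mir191, so the order of these neighbours was not the same in both libraries.

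Mir425 was a gene of middle to high level. It had 2145 reads in replicate 1 and 4815 in replicate 2, or 706 and 911 CPM, with a mean of 809 ± 145 CPM (SD, n = 2). Its shares of the miRNA reads were 0.0706% (0.0677 to 0.0737) and 0.0911% (0.0886 to 0.0937), with Wilson intervals as before, which do not overlap. It ranked 75 and 73 in the libraries and 76 by mean, with 246 and 249 of the 321 detected genes below it.

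The neighbours of Mir425 in this order were closer than the spread between libraries. Mirlet7a-1, a let-7 gene with near-identical copies, was the most like it, at 715 and 930 CPM (distance 0.036 on the log2 CPM scale, over 2 libraries). Mir1839 (850 and 969 CPM, distance 0.28) and Mir29c (623 and 1070 CPM, distance 0.29) followed. Above Mir425 by mean stood Mirlet7a-1 and Mir497 (923 and 752 CPM), and below it Mir16-1 (868 and 741 CPM) and Mir351 (788 and 683 CPM). The ranges of these 4 genes over the libraries all overlapped that of Mir425, so its place in the order is not fixed by these data.

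Within each library Mir191 far exceeded its neighbour. The ratio of Mir191 to Mir425 reads was 15.3 in replicate 1 (95% exact binomial interval 14.7 to 16.0) and 12.2 in replicate 2 (11.9 to 12.6). On the log2 scale the ratio was 3.94 and 3.61, with a mean of 3.77 ± 0.23 (SD, n = 2). Mir191 was thus higher in both libraries by much more than the spread between them, and this ratio does not depend on how the libraries are scaled. Of the reads of the pair, Mir425 gave 6.12% (5.87 to 6.37) in replicate 1 and 7.57% (7.37 to 7.78) in replicate 2, again with 95% Wilson intervals. The pair together had 11545 and 12034 CPM, of which nearly all came from Mir191.

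The ratio differed between the libraries by more than counting error. It was lower in replicate 2 by a log2 difference of -0.33 (Fisher's exact test on reads, two-sided, p = 6.83e-18). This test compares 2 libraries and not conditions. Its size was set beside other neighbours: 44 other pairs of adjacent miRNA genes on the same strand, at most 1000 bases apart and both detected. Of these, 10 had a smaller change of ratio between the libraries than Mir191 and Mir425, and their median absolute change was 0.74. Among the 13 other pairs with at least 1000 reads in every count, 5 had a smaller change and the median was 0.55. The change was smallest for Mir93 and Mir106b, neighbours in an intron of the DNA replication gene Mcm7 (0.02), and largest for Mir34c and Mir34b (3.72). As for the size of the ratio itself, 13 of the 44 pairs were more unequal than Mir191 and Mir425, and the median absolute log2 ratio was 2.60. In 31 of these pairs neither hairpin shares a 22-base stretch with another hairpin. Of those 31, 6 were more unequal, with a median of 2.41. Among the 13 pairs with at least 1000 reads in every count, 3 were more unequal, with a median of 2.06. Pairs in clusters share genes with each other and are not independent, so these counts are a description.

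**Figure D2:**
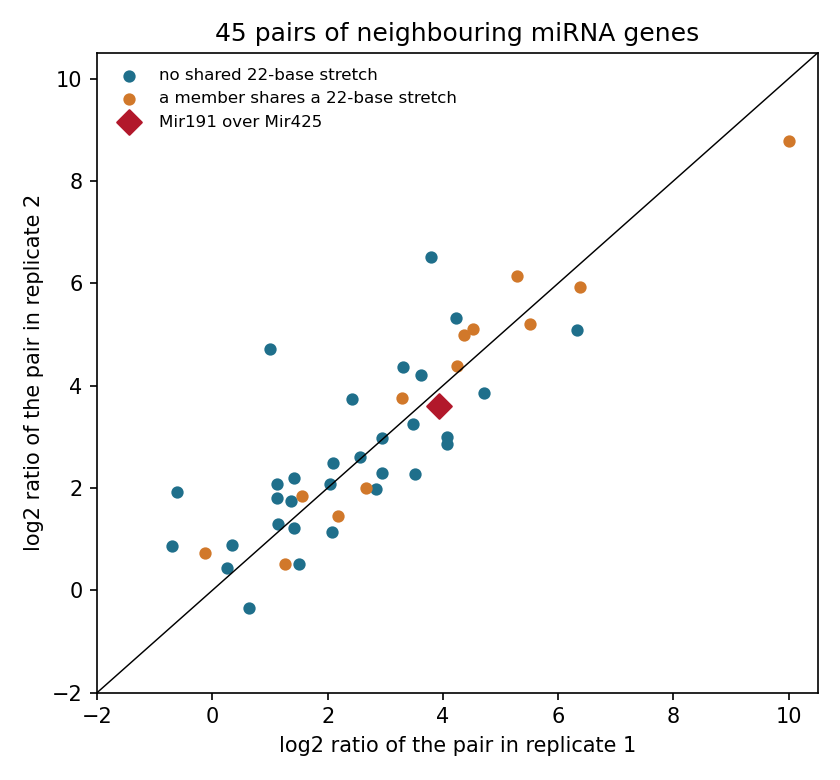
Log2 ratio of reads between adjacent miRNA genes in replicate 1 (horizontal) and replicate 2 (vertical), each pair taken in the direction of its higher member by mean; the line marks equal ratios. Blue points are pairs without, orange points pairs with a hairpin that shares a 22-base stretch with another hairpin, and the red diamond is Mir191 over Mir425, at 3.94 and 3.61, just under the line.

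Per miRNA read, the libraries were within a few percent of each other for Mir191 and further apart for Mir425. Mir191 was 1.03-fold higher in replicate 2 (95% exact binomial interval 1.01 to 1.04), a log2 ratio of 0.037 (0.018 to 0.057). Mir425 was 1.29-fold higher (1.23 to 1.36), a log2 ratio of 0.37 (0.29 to 0.44). Given as the SD over the mean of 2 libraries, the spread was 1.83% for Mir191 and 17.9% for Mir425. Both members were called higher in replicate 2 beyond counting error, with adjusted p = 0.000432 for Mir191 and 1.53e-22 for Mir425 (exact two-sided binomial test on reads, Benjamini-Hochberg over 424 genes). At this depth such calls are common: 52.8% of the 424 tested genes were called in either direction, and 30.9% as higher in replicate 2. Of the calls, 58.5% were higher in replicate 2, against 36.4% with all reads as the denominator and 42.4% without the 10 most abundant genes. Of the 50 detected genes nearest in level, 47 were called for Mir191 and 46 for Mir425. These sets are wide in level, at 1549 to 68411 CPM for Mir191 and 325 to 2101 CPM for Mir425. The calls thus do not set the members apart.

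The spread of genes between these libraries was wide, with a biological coefficient of variation of 40.8% (common dispersion of edgeR). With that dispersion, which comes from the same 2 libraries, the exact test of edgeR called 2.83% of all genes tested, none of them with an absolute log2 ratio under about 3. Its adjusted p of 1 for Mir191 and of 1 for Mir425 therefore does not show that either was stable. The median absolute log2 ratio was 0.38 over the 321 detected genes. Mir191 had a smaller absolute ratio than most: 15 genes were closer to 0, which is 4.67%, and 4 of the 50 genes nearest in level. Mir425 lay in the middle, with 156 of the 321 genes (48.6%) and 32 of its 50 nearest genes closer to 0. Median absolute ratios were 0.27 in each set of 50.

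These positions depended on the scaling, while the gap of 0.33 between the members did not. The direction for Mir191 turned with all reads of the library as the denominator (-0.21), and also with the 10 most abundant genes left out of it (-0.15). Mir425 was higher in replicate 2 in both cases (0.12 and 0.18). On the scale of all reads Mir425 was thus the closer to 0, with 15.9% of detected genes closer still, against 25.9% for Mir191. With edgeR's TMM factors and with DESeq2 size factors, Mir191 was at 0.012 and 0.018 and was not called (adjusted p = 0.351 and 0.117, exact binomial test). The close match of Mir191 between the libraries therefore holds for the scalings by miRNA reads, TMM and DESeq2, and not for the other denominators. Between these scalings the median log2 ratio of the detected genes ran from 0.016 (reads in miRNA genes) to -0.23 (all reads).

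**Figure D3:**
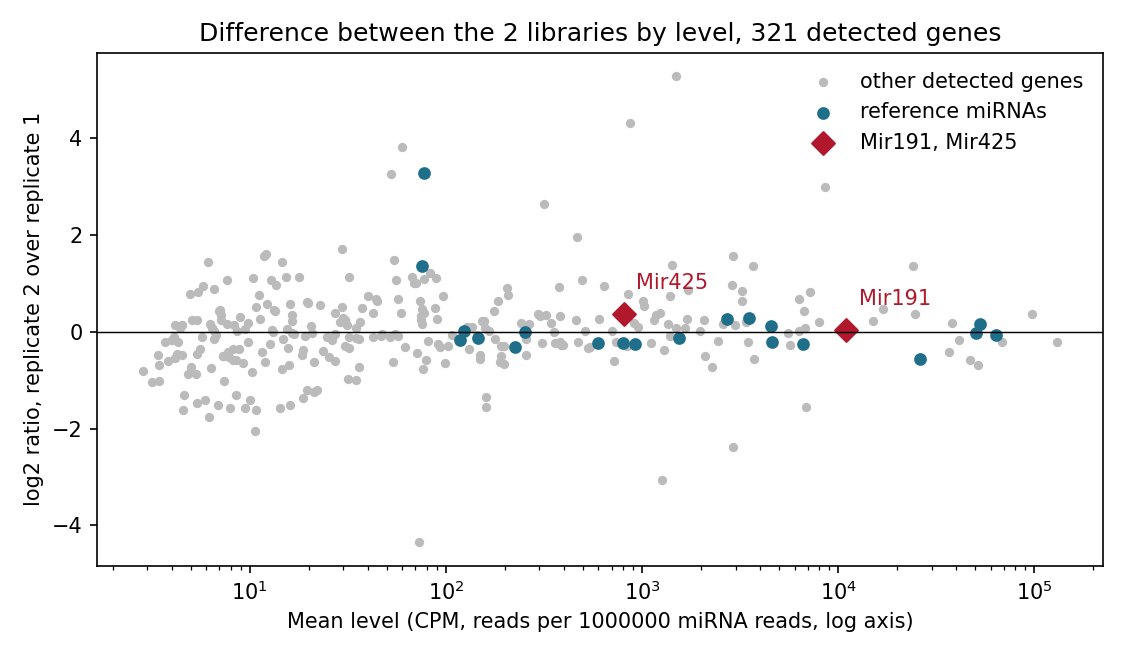
Log2 ratio of CPM between the libraries (replicate 2 over 1, vertical) against mean CPM on a log axis for the 321 detected genes. Red diamonds are the members, blue points the 20 detected reference miRNAs and grey points the other genes; Mir191 lies at 0.037 and Mir425 at 0.37, within the cloud at their levels.

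Both members were then set beside 24 other hairpins of broadly expressed miRNAs that often serve as references. Mir92a-1 and Mir92a-2 were not matched by name and are left out of the counts below. In GENCODE M21 they go by Mir92-1 (13526 and 15938 reads) and Mir92-2 (906 and 1138 reads). Their log2 ratios were -0.56 and -0.47, both called higher in replicate 1 beyond counting error. Mir103-1 (0 and 11 reads) and Mir103-2 (8 and 65 reads), copies of the same miRNA that is a common reference, were below the detection limit in replicate 1. Reads that mapped to both copies were given to no gene, so these counts do not show a low level of that miRNA. The other 20 were detected, of which 6 share a 22-base stretch with another hairpin. In mean level, 4 of the 20 exceeded Mir191: Mirlet7i (63798 CPM), Mirlet7g (52696 CPM), Mirlet7d (50237 CPM) and Mir26b (26301 CPM). For Mir425, 11 of the 20 were higher.

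Of these 20 references, 10 were higher in replicate 1 beyond counting error, 6 higher in replicate 2 and 4 not called, with a median absolute log2 ratio of 0.22. The shares of all 424 tested genes in these directions were 21.9% and 30.9%. The 424 include genes with as few as 10 reads over both libraries, where only large changes can be called. They are thus not matched in level to the references. With all reads as the denominator, 16 of the 20 references were called higher in replicate 1 and 2 in the other direction, against 33.0% and 18.9% of all tested genes. Over all detected genes the median absolute log2 ratio was 0.38, as above, and among the 50 genes nearest in level to each member it was 0.27. Per miRNA read, only Mir152 (0.0040), Mir16-2 (0.019) and Mirlet7d (-0.030) were closer to 0 than Mir191. For Mir425, 17 of the 20 were closer to 0. Of the 20, those further away were Mir26b (-0.57), Mir26a-2 (1.36) and Mir26a-1 (3.27), all of the miR-26 family. Mir26a-1 was the only reference called by the exact test of edgeR (adjusted p = 0.0268). Mir92-1 (-0.56) and Mir92-2 (-0.47), which are not among the 20, were also further from 0 than Mir425. Mir26a-1 and Mir26a-2 have near-identical copies and few counted reads (44 and 740, and 128 and 573). Of the other references, Mir93 (-0.21), Mir16-1 (-0.23), Mir25 (-0.24), Mir484 (-0.24), Mir30e (-0.26) and Mir24-2 (-0.31) were higher in replicate 1. Mir423 (0.27) and Mir320 (0.28) were higher in replicate 2, like Mir425. Mir361 was at -0.12, Mir151 at 0.11 and Mir186 at -0.12, the last of which was not called.

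**Figure D4:**
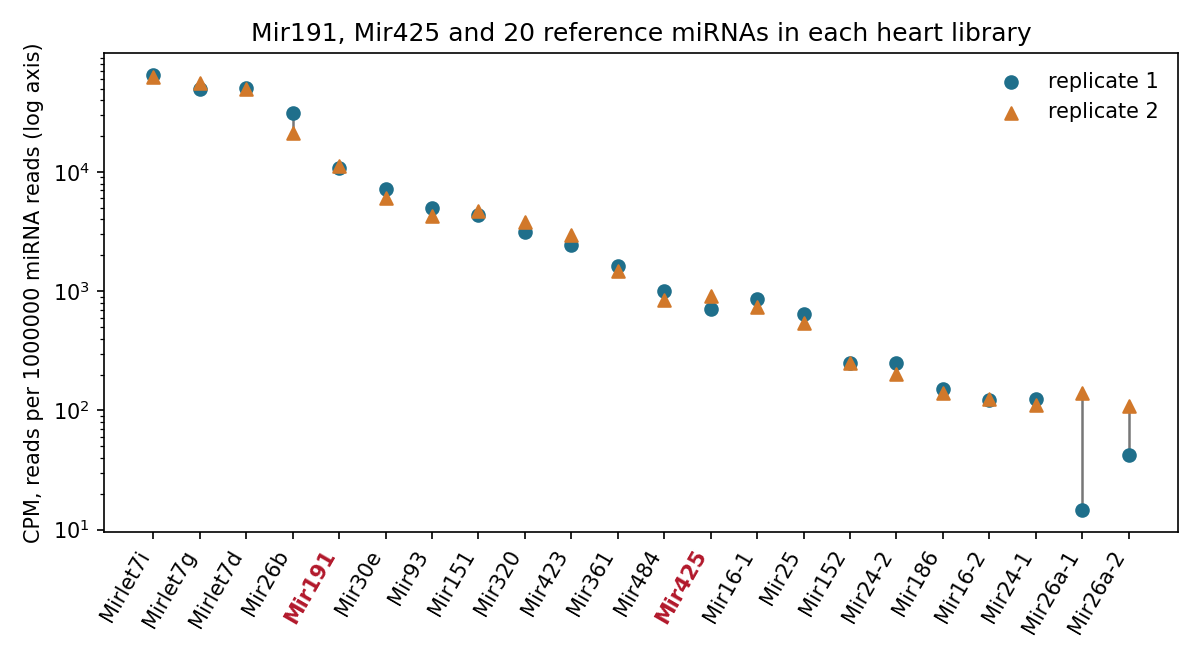
Level in CPM (log axis) of the members and the 20 detected reference miRNAs, in order of mean level. Circles are replicate 1, triangles replicate 2, and lines join the libraries; Mir191 comes after Mir26b, with its symbols on top of each other (10839 and 11123 CPM), while those of Mir425 are apart (706 and 911 CPM).

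Because a common scaling cancels in a ratio, references were also compared in pairs. For each of the 22 genes the change of its ratio to every other gene between the libraries was averaged, in absolute log2 units. With 2 libraries, each change is the difference between 2 of the log2 ratios already used above. The places below therefore restate those values. They show how near a gene lies to the others of this list, and they depend on which genes are listed. Mir92-1 and Mir92-2 are not among these 22. Mirlet7d and Mirlet7i had the lowest mean (0.400 each), Mir191 was in place 7 (0.411) and Mir425 in place 19 (0.598), ahead only of the 3 miR-26 genes. These means include the large change against Mir26a-1. By the median change in place of the mean, Mir191 was in place 10 (0.242), behind genes such as Mir24-1 (0.169), Mir93 (0.210) and Mir16-1 (0.232), and Mir425 was again in place 19 (0.490). Over all 231 pairs the median change was 0.28, and 128 pairs changed less than Mir191 against Mir425. Without the 6 references that share a 22-base stretch, Mir191 took place 6 of 16 (0.215) and Mir425 place 15 (0.433). The order of Mir191 among the genes above and below it was close: places 1 to 8 of the 22 spanned only 0.400 to 0.417, and 2 libraries give no error for this order. Several references come from shared loci, such as Mir25 and Mir93, and do not count as independent.

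Used as the sole reference, a gene shifts every other gene by its own log2 ratio between the libraries, so the shifts that follow restate the 0.037 of Mir191 and the 0.37 of Mir425. Scaled to Mir191, the median log2 ratio of the 321 detected genes was -0.021, close to the 0.016 found per miRNA read, and 48.0% of the genes were higher in replicate 2. Scaled to Mir425, the median was -0.35 and 26.2% of the genes were higher in replicate 2. With the mean of both members the median was -0.19, and with the mean of the 20 references it was -0.13. The mean log2 ratio of the 20 references, 0.15, includes Mir26a-1 (3.27) and Mir26a-2 (1.36), which have few counted reads. Their median log2 ratio was of the opposite sign (-0.096), so the direction of this last shift depends on how the references are averaged. The number of genes within a log2 ratio of 1 was nearly the same throughout, at 261 with Mir191, 260 with Mir425 and 270 with the 20 references.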

How the data were processed

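Small RNA from heart tissue was sequenced in 2 libraries. The authors deposited a table of raw read counts for each library, with a column that ignores strand and a column for each strand, aligned to mm10 per the labels and annotated with GENCODE M21 per the deposited text. The aligner, the counter and any trimming were not given in the sources used here. Of the strand columns, that with the larger sum over miRNA genes was taken as sense. The 4 summary lines stayed out of library totals, and CPM are counts per 1000000 reads in miRNA genes. All gene IDs matched GENCODE; RefSeq gave sequences and the extent of Dalrd3.

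Differences between libraries were tested across all genes with 10 or more reads over both libraries. An exact two-sided binomial test was used (scipy 1.17.1, Benjamini-Hochberg, threshold 0.05), and tried on simulated counts with counting error only. That simulation cannot show how the test behaves with the spread between these libraries. The exact test of edgeR 4.0.16 at its common dispersion was used as well. DESeq2 1.42.0 gave size factors only. Intervals and floors (3 reads) are at the 95% level and cover counting error only, since no molecular identifiers are recorded. The members and lists were chosen with earlier results of these data known. Named genes are the members, the reference list, the 3 genes nearest in log2 CPM to each member, the 2 above and 2 below it in rank, the neighbour pairs with the smallest and largest change, and genes sharing a seed; the markers named singly were chosen after their values were seen. Alternatives covered scaling, denominator, strand column, read minimum, test and leaving out a library.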

Additional observations from a re-analysis of the deposited data

How the results depend on the processing

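Levels were within 1 SD of the reported means under TMM and DESeq2 size factors; either library alone always lies within 1 SD of a mean of 2. Per 1000000 of all reads, the means were 3239.6 for Mir191 and 236 for Mir425. With the 10 most abundant genes out of the denominator they were 30692 and 2244. In the column that ignores strand Mir191 was at 0, where Gm24083 overlaps it, and Mir425 at 1090.3 CPM. That column gives Mir191 no ratio to Mir425 or between libraries. The log2 ratio of Mir191 between libraries lost its call under TMM (0.012), DESeq2 size factors (0.018) and the exact test of edgeR (0.037, adjusted p = 1). It reversed with all reads (-0.21) and without the 10 most abundant genes (-0.15). These denominators subtract 0.25 and 0.19 from the log2 ratio of every gene. Reads in miRNA genes were 32.1% of all reads in replicate 1 and 27.0% in replicate 2. The 10 most abundant genes took 66.4% and 61.8% of the miRNA reads. What lies behind these differences between the libraries was not tested. The log2 ratio of Mir425 between libraries kept its call and direction under all 5 scalings and columns (adjusted p from 1.48e-22 to 0.00356, exact binomial test). It lost the call in the exact test of edgeR (0.37, adjusted p = 1), which called no gene with an absolute log2 ratio under about 3. The number of genes called was 224, stayed from 183 to 224 under other scalings, columns and read minimums, and was 12 in the exact test of edgeR. The share of genes closer to 0 than Mir425 was 57.1% among genes with at least 100 reads and 36.5% with at least 1 read in both libraries. The same share under other scalings, and the counts of references closer to 0, over all detected references and over those without shared stretches, were added after seeing the data. With 1 library left out no difference between libraries can be given.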
